A study of Homo sapiens with 4 samples.

Results

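Expression of 10 cytokine genes, of 19775 genes named on the array, was described in MKN45, an established human line of gastric epithelium taken from a tumour, with and without lipopolysaccharide (LPS) of the stomach bacterium Helicobacter pylori. The genes were IL1A, IL1B, IL1RN, IL18, IL33, IL32, LTB, TNF, TNFSF10 and TNFSF15. Members were all probe sets that the platform annotation assigns to one of these symbols and to no other gene, which gave 20 of the 54675 probe sets on the array. Probe sets were assigned by name alone, but the genes were chosen with earlier results of these data known. A probe set is a group of short array probes read as 1 value, and values are given on the log2 scale. The untreated group (2 arrays) had its medium replaced by fresh medium and the LPS group (2 arrays) by medium with 10 µg/ml LPS. RNA of both groups was taken 8 h later. The series text speaks of 2 independent experiments, so every p-value and interval below measures spread between these few arrays. The test draws the variance of each probe set towards that of probe sets of similar level, so an interval is not set by its own arrays alone. All arrays came from this 1 tumour-derived line.

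IL1A, IL1B, IL18 and IL33 belong to the interleukin 1 family, whose members signal through paired receptors with a shared intracellular domain and end in activation of NF-kB, a transcription factor of inflammation. IL1B and IL18 are made as inactive precursors that caspase 1 cuts, and IL1RN encodes the antagonist that occupies the IL1 receptor without signalling. LTB, TNF, TNFSF10 and TNFSF15 belong to the tumour necrosis factor family, membrane-anchored ligands of trimeric form. IL32 is a cytokine of neither family that is known to be made by epithelial cells and to be induced by inflammatory signals. In the stomach, IL1B also suppresses acid secretion.

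No cytokine of the 10 passed the test. With limma and a Benjamini-Hochberg adjusted p under 0.05 across all 38229 probe sets above the level filter, 0 of 13 member probe sets were called, against 0.00785% of all probe sets tested. The level filter kept probe sets whose mean over the 4 arrays reached the 30 percentile of all means, 6.06. The largest positive difference was that of LTB, at 1.35-fold (95% interval 1.19 to 1.54, adjusted p = 0.183). IL32 and IL1B were higher by smaller amounts, and IL1A, IL18, TNFSF15 and the 2 brightest IL1RN probe sets were lower. A fainter IL1RN probe set above the filter, 216245_at, was higher by 0.23. TNF differed by 0.063 and its arrays overlapped. IL33 and TNFSF10 lay under the level filter on all their probe sets. In these bulk samples, a change in RNA per cell and a change in the share of cells that make it cannot be told apart.

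Promoters are shown because both cytokine families signal to NF-kB and LPS receptors do so too. LTB and IL32 had the highest differences of the member genes at their brightest probe sets. TNF lay near the middle and IL1A was lowest. TNFSF15, the next lowest, is not shown. The 250 bases before the most upstream start in the RefSeq table (GRCh38.p14) are given 5′ to 3′ on the gene's own strand. Capitals mark matches to the NF-kB decamer GGGRNNYYCC (R is A or G, Y is C or T, N is any base), searched on both strands. Sequences that depart from this pattern are not marked.
LTB (chr6:31582426-31582675, minus strand): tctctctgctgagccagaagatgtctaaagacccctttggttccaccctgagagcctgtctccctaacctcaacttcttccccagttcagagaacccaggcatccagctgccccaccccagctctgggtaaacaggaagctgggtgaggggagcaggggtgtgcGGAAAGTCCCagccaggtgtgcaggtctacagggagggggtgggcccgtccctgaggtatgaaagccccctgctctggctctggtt
IL32 (chr16:3065153-3065402, plus strand): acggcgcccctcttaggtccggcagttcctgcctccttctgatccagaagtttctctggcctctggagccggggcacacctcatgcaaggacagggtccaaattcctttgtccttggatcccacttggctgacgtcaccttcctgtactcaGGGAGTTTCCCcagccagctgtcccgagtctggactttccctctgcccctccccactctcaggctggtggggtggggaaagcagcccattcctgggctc
TNF (chr6:31575315-31575564, plus strand): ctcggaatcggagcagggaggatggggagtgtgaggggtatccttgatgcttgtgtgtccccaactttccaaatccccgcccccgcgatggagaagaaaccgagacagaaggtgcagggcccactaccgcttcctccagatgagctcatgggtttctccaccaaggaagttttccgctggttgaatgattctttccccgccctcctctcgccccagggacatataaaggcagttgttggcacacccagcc
IL1A (chr2:112784494-112784743, minus strand): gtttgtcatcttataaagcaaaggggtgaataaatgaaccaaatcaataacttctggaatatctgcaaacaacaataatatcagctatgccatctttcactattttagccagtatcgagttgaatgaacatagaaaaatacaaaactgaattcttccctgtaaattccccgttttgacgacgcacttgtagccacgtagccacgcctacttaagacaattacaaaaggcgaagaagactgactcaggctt

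Promoter entries were held for 9 of the 10 genes, all but IL18. LTB and IL32 were the 2 of those 9 whose 250 bases held an NF-kB decamer, a motif present in 9.6% of 27326 promoters of the same length. In LTB it lay 86 to 77 bases before the start, on the opposite strand. In IL32, 2 overlapping matches on opposite strands began 99 and 98 bases before it. The AP-1 heptamer TGANTCA occurred in IL1A, IL1RN and TNFSF15 (3 of 9, against 6.57% of promoters), and TATAAA in IL1A, TNF and TNFSF10 (3 of 9, against 11.2%). IL1A holds both of these in different places, and no match overlapped one of another motif. The TATAAA of IL1A lay 239 to 234 bases before the start, far from the positions in TNF (29 to 24) and TNFSF10 (31 to 26). IL1B held none of the 3 motifs, and neither did IL33. These are matches of letters in a window and were not tested as sites. A window without a match is not shown to lack an NF-kB site. That of TNF, for example, holds gggtttctcc, which departs from the decamer searched only by a T in place of R. Which genes hold a match thus depends on the pattern and the window. The motifs were picked with the array results known.

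LTB encodes lymphotoxin beta, a membrane ligand that joins lymphotoxin alpha and binds the lymphotoxin beta receptor, and it is best known from lymphocytes. Its brightest probe set, 207339_s_at, read 7.44 and 7.51 untreated and 7.95 and 7.87 with LPS. Both LPS arrays lay above both untreated arrays, with a gap several times wider than the spread inside either pair. The difference was 0.43 (SE 0.079). Taken over 16252 genes instead of probe sets, the adjusted p was 0.257. The other LTB probe set, 1559754_at, read 7.04 and 7.16 untreated and 7.32 and 7.11 with LPS. Its arrays overlapped, with a difference of 0.12 (interval -0.12 to 0.35) that ran from 0.0097 without LPS replicate 1 to 0.22 without LPS replicate 2. The suffix _s_at marks probes that can bind transcripts of more than 1 gene or form, and without such probe sets LTB is left with the difference of 0.12.

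TNF and LTB are immediate neighbours on chromosome 6 in the RefSeq gene table, with LTA, the gene of lymphotoxin alpha, on the other side of TNF. TNF encodes the cytokine that gave the family its name and is released early by stimulated macrophages. Its only probe set read 6.95 and 7.10 untreated and 7.16 and 7.02 with LPS. The groups overlapped, the interval of the difference was -0.16 to 0.28, and the sign turned when untreated replicate 1 or LPS replicate 1 was left out (-0.011 and -0.0092). LTA read 6.78 and 6.73 untreated and 6.73 and 6.74 with LPS, a difference of -0.018 (interval -0.20 to 0.17). Of these 3 adjacent genes, LTB alone had groups that did not overlap, on 207339_s_at but not on 1559754_at. Over all probe sets tested, 19.1% had both LPS arrays above both untreated arrays. The differences between the genes were not tested.

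**Figure D1:**
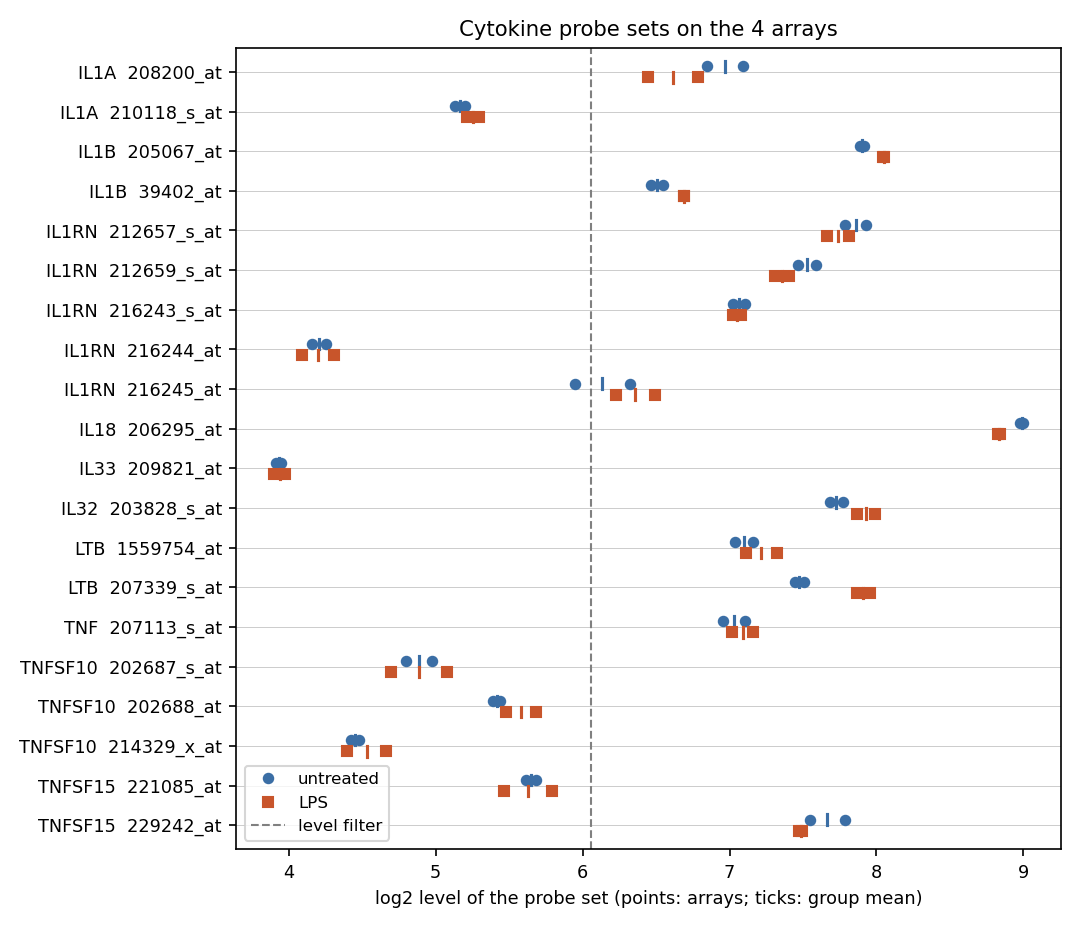
Log2 level (x axis) of each of the 20 cytokine probe sets (y axis) on the 2 untreated (blue circles) and 2 LPS (orange squares) arrays, with a tick at each group mean and a dashed line at the level filter of 6.06. The LTB probe set 207339_s_at has its LPS arrays at 7.95 and 7.87, apart from its untreated arrays at 7.44 and 7.51, while IL33 and TNFSF10 lie left of the filter.

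IL32, the cytokine of epithelial and immune cells outside both families, was read by 1 probe set, 203828_s_at. It read 7.69 and 7.77 untreated and 7.87 and 7.99 with LPS. All values with LPS were higher, by 0.200 on average, or 1.15-fold (interval 1.00 to 1.32, adjusted p = 0.419 in limma). The probe set is of the _s_at type, and there was no second one to compare it with.

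The interleukin 1 agonists went in different directions. IL1B, the secreted agonist cut by caspase 1, read 7.89 and 7.91 untreated and 8.05 and 8.04 with LPS on its brighter probe set, 205067_at. Its second, 39402_at, read 6.47 and 6.55 untreated and 6.69 and 6.69 with LPS. On both probe sets the LPS arrays lay above the untreated arrays, and the differences were 0.15 (interval -0.027 to 0.32) and 0.19 (interval -0.0034 to 0.38). Their adjusted limma p-values were 0.481 and 0.429. Of the 3 genes with 2 or more probe sets above the filter (IL1B, IL1RN and LTB), IL1B was the one with no overlap between the groups on any of them. Such separation was common: over all probe sets tested, 19.1% had both LPS arrays above both untreated arrays and 24.2% had both below. The 2 IL1B probe sets read 1 gene on the same arrays, so they are not independent readings.

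IL1A encodes an agonist that is active without being cut and that epithelial cells release when damaged. Its probe set above the filter, 208200_at, read 6.85 and 7.09 untreated and 6.79 and 6.44 with LPS. Both LPS arrays lay below both untreated arrays, but only by a narrow margin between 6.85 and 6.79. The difference of -0.35 was the lowest of all 20 (interval -0.67 to -0.033, adjusted p = 0.395 in limma). It ranged from -0.52 without LPS replicate 1 to -0.18 without LPS replicate 2. The second probe set, 210118_s_at, lay under the filter at 5.20 and 5.13 untreated and 5.30 and 5.21 with LPS, a difference of 0.090 in the other direction.

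IL18, a caspase 1 substrate that is known to be stored by epithelial cells, read 9.00 and 8.98 untreated and 8.84 and 8.83 with LPS. The pairs were tight, at SDs of 0.016 and 0.013, and both LPS arrays were lower. The SE in limma was 0.073, as it also draws on the spread of other probe sets. The difference was -0.15 (interval -0.33 to 0.018, adjusted p = 0.460 in limma), so a fall of up to 0.33 and no fall both lay inside the interval. IL33, a nuclear alarm cytokine of barrier tissues, read 3.92 and 3.95 untreated and 3.90 and 3.98 with LPS. This was near the floor of the values, at the 1.85 percentile of all probe set means, and no difference could be read at that level.

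IL1RN, the receptor antagonist, had 5 probe sets. The brightest, 212657_s_at, read 7.93 and 7.79 untreated and 7.66 and 7.81 with LPS, and its groups overlapped. The second, 212659_s_at, read 7.59 and 7.46 untreated and 7.40 and 7.31 with LPS, with both LPS arrays lower. Their differences were -0.12 (interval -0.34 to 0.097) and -0.17 (interval -0.37 to 0.030). The probe set 216243_s_at differed by -0.013. The faint 216245_at differed by 0.23 (interval -0.12 to 0.57) with overlapping arrays, and from 0.041 without untreated replicate 1 to 0.41 without untreated replicate 2. With 1 array left out, 212657_s_at ran from -0.19 to -0.045. The fifth, 216244_at, lay under the filter with a difference of -0.0071. The probe sets of IL1RN disagreed in direction, and none passed.

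**Figure D2:**
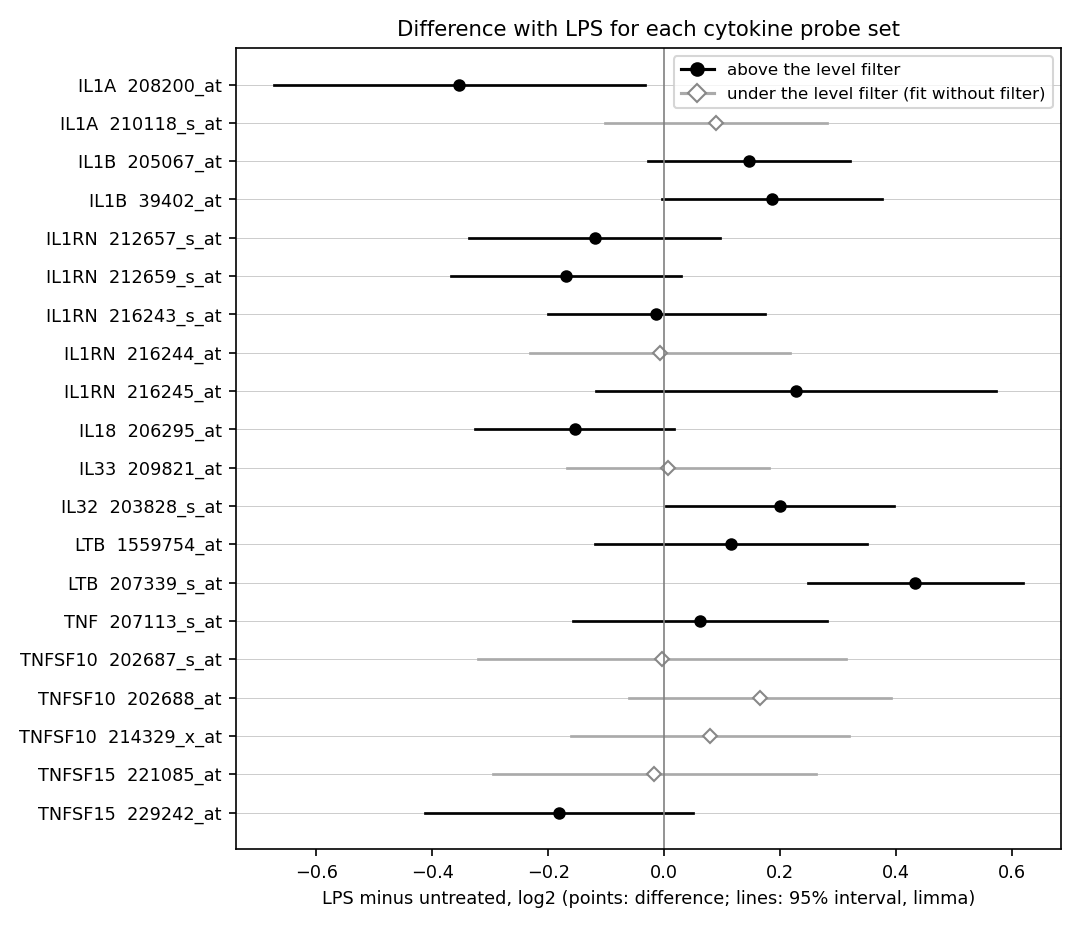
LPS minus untreated difference (x axis, log2) with its 95% limma interval (lines) for each of the 20 cytokine probe sets (y axis), with black circles above the level filter and open diamonds under it, the latter from the fit without a filter. The interval of LTB 207339_s_at (0.25 to 0.62) lies farthest from 0, those of IL32 and of IL1A 208200_at end close to 0, and the other intervals include 0.

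TNFSF10 encodes TRAIL, a ligand that triggers apoptosis through death receptors. Its 3 probe sets lay under the filter, with untreated means of 4.89, 5.42 and 4.45. Its brightest, 202688_at, read 5.44 and 5.39 untreated and 5.48 and 5.68 with LPS. That was a difference of 0.17 with an interval of -0.061 to 0.39 in the fit without a filter, and the other probe sets differed by -0.0031 and 0.079 with overlapping groups. TNFSF15 encodes TL1A, a ligand of the death receptor TNFRSF25 that is known from gut inflammation. Its brighter probe set, 229242_at, read 7.79 and 7.54 untreated and 7.50 and 7.47 with LPS. Both LPS arrays were lower, but most of the difference of -0.18 (interval -0.41 to 0.050) came from untreated replicate 1: without that array it was -0.061. The other TNFSF15 probe set, under the filter, differed by -0.017.

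Over the 13 member probe sets above the filter, 7 differences were positive and 6 negative, with a median of 0.063, against -0.0039 over all probe sets tested. Of the 13, LTB and IL32 (2 probe sets) were higher and IL1A (1 probe set) was lower when the limma p was left unadjusted and held to 0.05. With 1 array left out these counts ran from 1 to 3 higher and from 0 to 1 lower. The shares over all probe sets tested were 3.69% higher and 8.02% lower. Both LPS arrays lay above both untreated arrays for 4 of the 13 and below them for 4, where the background was 19.1% and 24.2%. Among the 8 member genes above the filter, each read by its brightest probe set, 0 were called in limma, against 0.0246% of 16252 genes. Of these genes, 4 differed upward and 4 downward, with a median of -0.029, against -0.0047 over all genes tested. The median thus changed sign between probe sets and genes. The half-width of the 95% interval had a median of 0.198 over the 13 probe sets. For scale, the chemokine gene CCL20 differed by 2.93 and CXCL1 by 1.99 in the same comparison, and both were called.

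The array pattern of LTB was set beside those of the other genes, by the Euclidean distance between the 4 array values after centring each gene on its mean. The nearest of 16252 genes were HORMAD2 (distance 0.0517), TUBB4A (0.0595) and SPRR1A (0.0666). They differed by 0.42, 0.45 and 0.38 between the groups, with adjusted limma p-values of 0.257, 0.257 and 0.253. With 4 arrays such a likeness is a description of these values.

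Genes that make, bind or relay these cytokines were described from 7 lists with 71 symbols, of which 64 were measured by a probe set with that symbol alone and 52 lay above the filter. In limma 0 of the 52 passed over all genes, against a background of 0.0246%. With the p left unadjusted and held to 0.05, the count was 3 higher and 3 lower, where the shares over all genes tested were 3.72% and 7.91%. Their median difference was 4e-04, against -0.0047 over all genes tested.

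Of the other IL1 family ligands, 5 of 6 lay above the filter and differed by -0.12 to 0.018, IL36A by -0.12 and the antagonist gene IL36RN by -0.049. Among 9 receptors and binding proteins of the family, 7 lay above the filter. IL1RAP, the accessory chain shared by the receptors for IL1 and IL33, read 8.07 and 7.96 untreated and 8.26 and 8.26 with LPS. Both LPS arrays were higher, by 0.24 (interval 0.055 to 0.43, adjusted p = 0.357 in limma), while its other probe set differed by 0.038. IL1R2, a decoy receptor for IL1, differed by -0.12 (interval -0.27 to 0.024) at an untreated mean of 11.51, and by -0.042 on its other probe set. The signalling receptor gene IL1R1 lay under the filter at 5.56 untreated and 5.64 with LPS, as did IL18R1 at 5.71 and 5.77.

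Of 10 genes of the inflammasome, the complex that activates caspase 1, 6 lay above the filter. CASP4, an intracellular LPS sensor, read 8.33 and 8.08 untreated and 8.01 and 7.90 with LPS. Both LPS arrays were lower, and the difference was -0.25 (interval -0.49 to -0.0062, adjusted p = 0.421 in limma), with -0.074 on its other probe set, under the filter. AIM2, a sensor of cytosolic DNA, differed by 0.22 (interval -0.0025 to 0.44). CASP1 itself differed by 0.18 (interval -0.067 to 0.43) on the brightest of its 5 probe sets and by 0.12 on another above the filter. Its probe sets under the filter differed by -0.038, -0.18 and -0.0675. Of the genes relaying the signal from the IL1 receptor, MYD88 differed by 0.076 and IRAK1 by -0.064, against 0.16 on the other IRAK1 probe set.

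**Figure D3:**
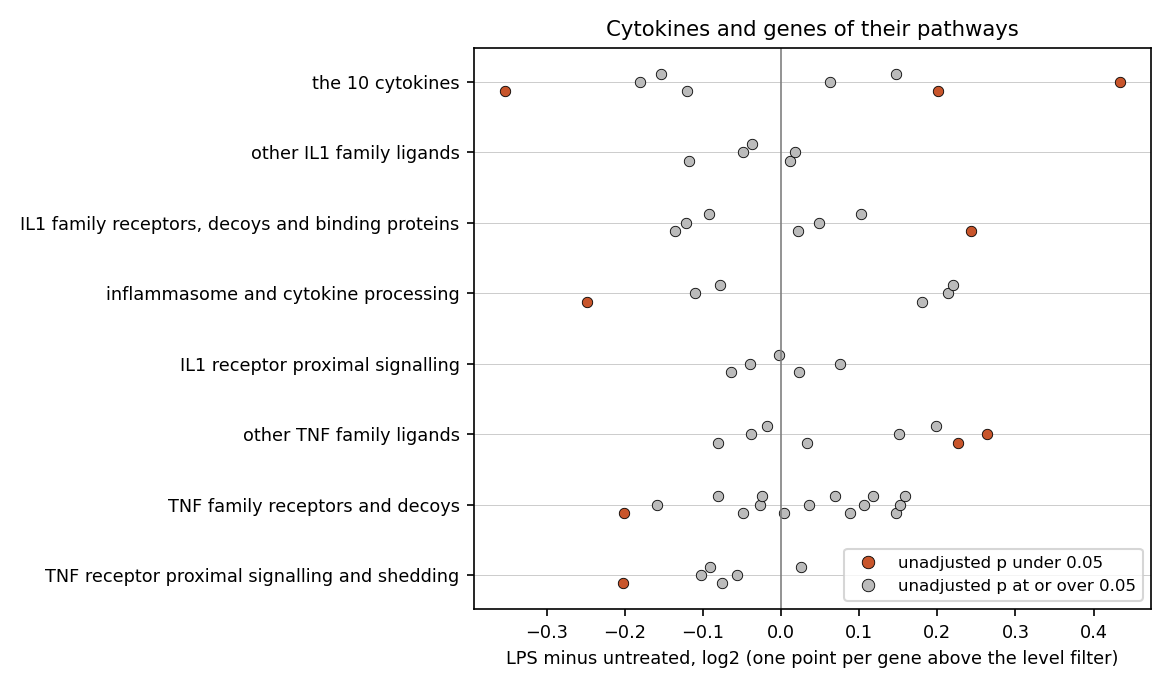
LPS minus untreated difference (x axis, log2) of the 8 cytokine genes and the 52 pathway genes above the level filter, 1 point per gene at its brightest probe set, by list (y axis), with orange for an unadjusted limma p under 0.05. The cytokine row spans -0.35 (IL1A) to 0.43 (LTB), and the pathway lists span -0.25 (CASP4) to 0.26 (TNFSF14).

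Of 14 other TNF family ligands, 8 lay above the filter. TNFSF14, which encodes LIGHT, a further ligand of the lymphotoxin beta receptor, read 7.24 and 7.19 untreated and 7.49 and 7.46 with LPS. The groups did not overlap, and the difference was 0.26 (interval 0.086 to 0.44, adjusted p = 0.332 in limma), with 0.19 on its other probe set. TNFSF9, the ligand of 4-1BB, read 8.77 and 8.69 untreated and 8.90 and 9.01 with LPS, a difference of 0.23 (interval 0.033 to 0.42, adjusted p = 0.385 in limma).

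All 15 measured TNF family receptors lay above the filter, and their differences ran from -0.20 to 0.16. TNFRSF10A, a death receptor for TRAIL, read 9.42 and 9.48 untreated and 9.24 and 9.26 with LPS. Both LPS arrays were lower, by 0.20 on average (adjusted p = 0.385 in limma), but its other probe sets differed by -0.074 and 0.077. TNFRSF10D, a decoy receptor for TRAIL, differed by 0.15, and by 0.10 on its other probe set. For LTBR, the receptor of lymphotoxin beta, the brightest probe set gave a difference of 0.070 (interval -0.13 to 0.27). On a second one, 232819_s_at, both LPS arrays were higher than both untreated arrays, with a difference of 0.18 (interval 0.0052 to 0.36). Its remaining probe sets differed by 0.0020 and, under the filter, 0.063. TNFRSF1A, the main TNF receptor, differed by 0.088 (interval -0.082 to 0.26). ADAM17, the protease that releases TNF from the membrane, read 9.32 and 9.30 untreated and 9.13 and 9.08 with LPS. Both LPS arrays were lower, and the difference was -0.20 (interval -0.37 to -0.031, adjusted p = 0.385 in limma), with -0.17 and 0.019 on its other probe sets. CASP8, the initiator caspase of death receptors, differed by -0.10, and by -0.090 and 0.017 on its other probe sets.

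The labelled cell type was checked on markers. All 12 gastric and intestinal epithelial markers lay above the filter, with a mean of 11.77 to 11.78 on the 4 arrays. Their single levels ran from 7.04 (CDX2) to 14.62. Most leukocyte, fibroblast and endothelial markers passed the filter too, so passing it does not set the lists apart. Single epithelial markers differed between the groups behind the list's mean. The transcription factor gene GATA6 differed by -0.22 (interval -0.34 to -0.086) with both LPS arrays lower. CDX2 differed by 0.23 (interval 0.026 to 0.43) with both higher. Of 11 measured leukocyte markers, PTPRC and CD14 lay under the filter, and the list's mean was 7.32 and 7.36 untreated and 7.36 and 7.38 with LPS. Its single levels ran from 5.53 to 12.67, the highest being that of LYZ. Of the 9 above the filter, both LPS arrays lay above both untreated arrays for 3 and below them for 2 (LYZ at -0.15 and NKG7 at -0.15). CD53 read 8.39 and 8.38 untreated and 8.56 and 8.87 with LPS (difference 0.33, adjusted p = 0.364 in limma). The 10 fibroblast and endothelial markers averaged 7.06 to 7.23, with CDH5 under the filter and single levels from 5.45 to 9.17 (COL1A1). Both LPS arrays were higher for VIM (0.24, interval 0.034 to 0.44), DCN (0.20) and PDGFRB (0.18) and lower for 1 of the 9 above the filter, LUM (-0.081). No marker of these lists passed in limma. With the p left unadjusted and held to 0.05, 3 were higher and 2 lower, of 12, 9 and 9 tested. The shares over all genes tested were 3.72% and 7.91%. Over all probe sets tested, both LPS arrays lay above both untreated arrays for 19.1% and below them for 24.2%. The part of the markers in the cytokine differences was not tested. Array controls also moved with the groups. The poly-A controls spiked in ahead of labelling averaged 8.60 and 8.25 untreated and 7.98 and 7.92 with LPS. All 24 of their 24 probe sets had both LPS arrays below both untreated arrays. Their mean difference of -0.478 was larger in size than that of any member probe set. The part of these controls in the differences above was not tested. The 4 arrays had medians from 7.004 to 7.034, and the number of arrays limits the precision.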

How the data were processed

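RNA of 4 samples of MKN45 cells was labelled with biotin and hybridised to Affymetrix arrays, per the labels' protocols. The values the authors deposited were 54675 probe set levels per array, on a log2 scale by their range. MAS5 and RMA are named in the submitters' processing notes, and which of them made the values is not given in the sources used here. Ranked values agreed across arrays to within 0.0977, so the arrays had already been set to nearly equal distributions, which would hide a shift of all transcripts.

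The 62 control probe sets were left out and no further normalization was applied. Genes were named from the platform annotation, in which 41091 probe sets have 1 symbol, 1801 several and 11721 none. By Entrez identifier 41037 matched RefSeq (GRCh38.p14), which changed 0 symbols. The 2 groups, taken from the sample titles, were tested with limma 3.58.1 in R 4.3.3 (lmFit, eBayes with an intensity trend, two-sided, 7.06 degrees of freedom), with Benjamini-Hochberg adjustment over all probe sets above the filter. A gene took the p-value of its brightest probe set in that fit, adjusted over genes. The procedure was checked on data with known answers. All 20 member probe sets were named, and of each pathway list up to 4 genes past the threshold or, failing that, the 2 of smallest p. LTA, CASP1, IL1R1, IL18R1, LTBR and TNFRSF1A (partners of the members) and the markers were named outside this rule, after their values were seen. The members, lists and motifs were chosen with earlier results of these data known.

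Alternatives were no level filter, a filter at the 50 percentile, cyclic loess, quantile normalization, median centring, no intensity trend, the replicate number as a block, dropping each array in turn, averaging a gene's probe sets, and dropping _x_at and _s_at probe sets. A variance model fitted on the genes alone was added after seeing the data. Where an array was dropped, the remaining one of its group was taken to vary as the other group does.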

Additional observations from a re-analysis of the deposited data

How the results depend on the processing

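No member probe set was called in limma under any of the 12 alternatives run on probe sets, and no member or pathway gene under any of the 14 run on genes. The adjusted p of LTB ran from 0.115 to 0.910 on probe sets. Of 13 member probe sets, 11 kept the sign of their difference throughout. The exceptions were TNF, at -0.011 without untreated replicate 1 and -0.0092 without LPS replicate 1, and IL1RN 216243_s_at, at -0.053 to 0.027 with 1 array left out. As a gene, IL1RN turned to 0.23 without _x_at and _s_at probe sets, which leaves it with 216245_at. LTB differed by 0.39 to 0.48 with 1 array left out, by 0.12 without _x_at and _s_at probe sets and by 0.27 as the mean of its probe sets. IL32 ran from 0.14 to 0.26 under the same omissions. The 2 member probe sets higher at an unadjusted 0.05 in limma became 1 with no level filter, with median centring and without untreated replicate 1, LPS replicate 1 or LPS replicate 2. They became 0 without _x_at and _s_at probe sets and 3 without trend or without untreated replicate 2. The 1 lower probe set (IL1A) was lost at the 50 percentile filter, which removes it. With 1 array left out, its difference ran from -0.52 without LPS replicate 1 to -0.18 without LPS replicate 2. It was -0.23 without untreated replicate 2. That of TNFSF15 229242_at ran from -0.30 without untreated replicate 2 to -0.061 without untreated replicate 1, so the lower probe set was not always the same one. With the replicate number as a block, 0 member probe sets were called and LTB had an adjusted p of 0.142. The block moved the count over all genes from 4 to 7. No label says what the numbers mark, and the deviations of same-numbered arrays correlated at r = 0.154 over all probe sets and 0.214 over those above the filter. Fitting the variance model on the genes alone, added after seeing the data, gave 10 called genes and an adjusted p of 0.0921 for LTB. The number of arrays limits the precision.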
